A study of Rattus norvegicus with 6 samples.

Results

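The 9 genes Ube3a, Atp10a, Gabra5, Gabrg3, Oca2, Herc2, Nipa1, Nipa2 and Cyfip1 lie on rat chromosome 1 beyond the distal edge of the imprinted domain that is lost in Prader-Willi syndrome (PWS), and they were taken by gene name from the 32900 features counted in INS-1 cells, a rat insulinoma line widely used as a model of the β-cell. For each of 6 clonal lines, grown in 7.5 mM glucose, 1 library of rRNA-depleted total RNA was sequenced. The 3 control INS-1 lines (5-9, 2 and 16) carry a deletion of the domain on the silent maternal allele only, and the 3 PWS INS-1 lines (3, 19-1 and 19-4) carry it on both alleles, so that the maternal deletion is shared by all 6 lines and the groups differ in the active paternal copy. All 6 lines express a mouse insulin C-peptide-mCherry reporter and stem from cells that also carry an integrated human insulin transgene with neomycin resistance. Lines 2, 16, 3 and 19 were isolated from line 5-9. Line 19 gave rise to both 19-1 and 19-4, which leaves 2 independent paternal deletions among the 3 PWS lines, and that of line 3 reaches further at the proximal edge.

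In mammals the paternal copy of this domain transcribes Snurf-Snrpn, a long series of snoRNA host transcripts and several intronless genes, while the maternal copy is silenced under the control of an imprinting centre. Ube3a, the nearest gene beyond the distal edge, encodes an E3 ubiquitin ligase and is expressed from the maternal copy in neurons, where an antisense transcript from the domain silences the paternal copy, and from both copies in most other cells. Further out lie a lipid flippase gene, a cluster of GABA-A receptor subunit genes, the pigmentation gene Oca2, the ligase gene Herc2, and Nipa1, Nipa2 and Cyfip1, whose human counterparts are lost in the larger class of PWS deletions and kept in the smaller.

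The edges of the deletions were set by Cas9 guides, shown here because they mark where the flanking sequence begins. The distal guides sgRNA3 (maternal allele) and sgRNA79-1 (paternal allele) cut between the Snord115 cluster and Ube3a, leaving Ube3a and all genes beyond it in place, and the proximal guides sgRNA1 (maternal) and sgRNA70-3 (paternal) cut beyond Peg12 (Frat3). Each guide has 20 bases, written 5′ to 3′ with the 3 bases between the Cas9 cut and the PAM in capitals.
sgRNA3: tacttatgacaattaacCTC
sgRNA79-1: gccaggtacaggtagttCAC
sgRNA1: gtcagtgtgttattgctCTG
sgRNA70-3: gcttgtatgaatccctcTGG

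The deposited values are read counts divided by a size factor for each line, called normalized counts here. Each line had between 26016478 and 36084261 counted reads, and 1 read was worth between 0.909 and 1.2 normalized counts. The deletion was checked with the domain genes that these cells express. Snurf stood at 3160 to 3992 normalized counts in the control lines and at 0 to 3.64 in the PWS lines, Snrpn at 3149 to 3956 and 0 to 3.64, and Mkrn3 at 77.9 to 89.0 and at 0 reads. Snurf and Snrpn share nearly all their reads (1.62% and 0.888% unique to the gene), so they amount to a single check, to which Mkrn3 adds another. Ndn and Magel2 had 0 reads in all 6 lines and Peg12 at most 1 read in any line, so these genes check nothing here. All 14 β-cell markers were read in the 6 lines, while 4 of 6 acinar markers had no read, α-cell markers summed to at most 112 normalized counts in any line and δ- and PP-cell markers to at most 13.6. Not all other markers were low, since the 4 duct markers summed to 1287 to 1926 normalized counts, nearly all of it Krt7, and the 4 fibroblast markers in the table summed to at most 166. Any pair of lines within a group differed by more than sampling noise (chi-square of reads over genes, 15.6 to 35.6 per degree of freedom). Because each line was grown and sequenced as 1 culture, p-values measure the spread between lines, and fewer expressing cells and less RNA per cell cannot be told apart.

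Of the 9 flanking genes, 7 were expressed well enough to be tested, Gabra5 was at the limit of detection and Oca2 had no read. The groups were compared by limma on log2(normalized count + 1) over the 15579 genes that averaged 5 or more normalized counts, with Benjamini-Hochberg adjustment, and 0 of the 7 flanking genes passed an adjusted p of 0.05, where 40 of all genes tested did (0.257%). At an unadjusted p under 0.05 stood 1 of the 7 (Atp10a), against 11.3% of all genes tested. On the recovered reads edgeR likewise called 0 of the 7 (0.205% of all genes), whereas DESeq2 called 1, Atp10a, against 1.46% of all genes. The values of the groups did not overlap for 2 of the 7, Atp10a and Nipa1, against 17.4% of all genes. The median log2 fold change (PWS over control lines) of the 7 genes was −0.00086, beside −0.0028 for all genes tested, and 4 of the 7 lay within 0.1 of 0. The 7 genes had between 500 and 49351 reads over the 6 lines, with 98.96% (Ube3a) or more of them unique to the gene, so that sharing of reads with near-identical copies is small for these genes.

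**Figure D1:**
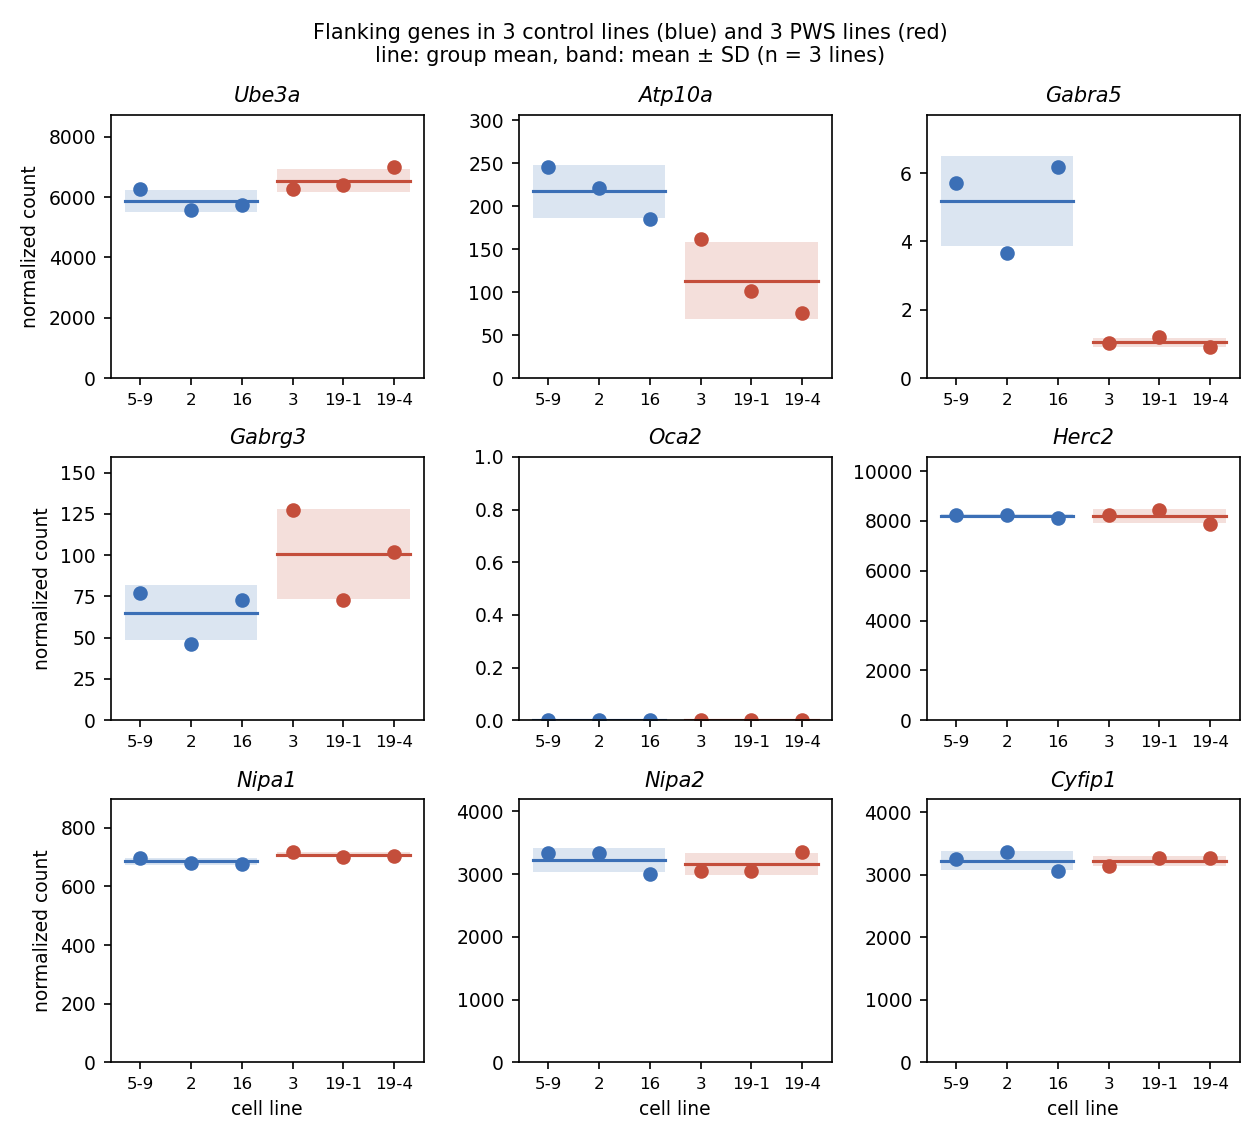
Normalized count (y axis, from 0, its own scale for each gene) of the 9 flanking genes in each cell line (x axis), with control lines in blue and PWS lines in red; horizontal lines are group means and bands the mean ± SD (n = 3 lines). All PWS lines lie below all control lines for Atp10a, Herc2, Nipa1, Nipa2 and Cyfip1 lie at one level in all lines, Gabra5 rests on 1 to 6 reads per line, and Oca2 is at 0 throughout.

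Ube3a, the ubiquitin ligase next to the breakpoints, was read in all lines at similar levels. Its normalized counts were 6265, 5576 and 5734 in lines 5-9, 2 and 16 of the control group. They were 6259, 6406 and 6982 in PWS lines 3, 19-1 and 19-4. The groups overlapped, since line 5-9 lay just above line 3, and line 19-4 was the highest of all. The group means were 5859 ± 361 and 6549 ± 382 (SD, n = 3 lines each), a log2 fold change of 0.16 ± 0.075 (SE, adjusted p = 0.467). The 95% interval ran from −0.011 to 0.33, a ratio of 0.993 to 1.26, so that equal levels and an increase of up to 1.26 times both lie within it. The counting interval of line 19-4 (6826 to 7139, exact Poisson) stood above that of every other line, while those of lines 5-9, 3 and 19-1 overlapped one another. All libraries were stranded, but the strand setting of the counting is not given in the sources used here, so reads from an antisense transcript, if present, could not be separated from those of Ube3a.

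Atp10a, which encodes a P4-ATPase that flips phosphatidylcholine across the plasma membrane, showed the largest difference of the 7 genes tested. In control lines 5-9, 2 and 16 it stood at 245, 221 and 185 normalized counts (258, 241 and 180 reads). In PWS lines 3, 19-1 and 19-4 it stood at 162, 102 and 75.5 normalized counts (159, 85 and 83 reads). Every PWS line was below every control line, although the nearest pair, control line 16 and PWS line 3, had overlapping counting intervals (159 to 214 and 138 to 190, exact Poisson). The PWS lines also differed among themselves, with line 3 above both subclones of line 19, whose intervals (81.2 to 126 and 60.1 to 93.5) overlapped.

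The group means of Atp10a were 217 ± 30.3 and 113 ± 44.6 (SD, n = 3 lines each), so that the PWS mean was 52.1% of the control mean. The log2 fold change was −0.996 ± 0.26 (SE) with a 95% interval of −1.599 to −0.39, which was larger in size than that of all but 2.08% of the genes tested. It did not pass after adjustment by limma (unadjusted p = 0.00505, adjusted p = 0.277) or by edgeR (−0.94, adjusted p = 0.304), and it passed by DESeq2 (−0.94 ± 0.27, adjusted p = 0.0423). The exact permutation test over the 6 lines gave p = 0.1 (two-sided), the smallest that 3 against 3 lines allow.

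The DESeq2 call of Atp10a was close to the threshold. It was no longer made when line 5-9, 2, 16, 19-1 or 19-4 was left out, in fits that have fewer lines and so less power (adjusted p = 0.324, 0.182, 0.0621, 0.355 and 0.328, with log2 fold changes from −1.04 to −0.71), and leaving out line 3 gave −1.30 (adjusted p = 9.7e-05). With the reads of lines 19-1 and 19-4 summed into 1 sample, DESeq2 gave −0.82 (adjusted p = 0.261). By limma the log2 fold change without each line in turn lay between −1.29 and −0.74, with adjusted p between 0.0758 and 0.582. The direction was thus the same under each of these fits, and the side of the threshold was not. β-cell markers moved in the same lines, with a summed level of the 14 markers between 601797 and 658383 normalized counts in the control lines and of 569494, 461302 and 331340 in lines 3, 19-1 and 19-4. Insulin and amylin transcripts make up most of that sum, 0 of the 14 passed limma's adjusted threshold, and the part of this difference in the level of Atp10a was not tested. The summed level of the 4 fibroblast markers was also lower in each PWS line, at 140 to 166 normalized counts in the control lines and 133, 118 and 50.005 in lines 3, 19-1 and 19-4. Nearly all of it was Pdgfra (log2 fold change −0.73, not past the threshold by limma), with Dcn at 0 reads and Col1a1 and Col3a1 at no more than 2.85 in any line, and its part was not tested either.

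**Figure D2:**
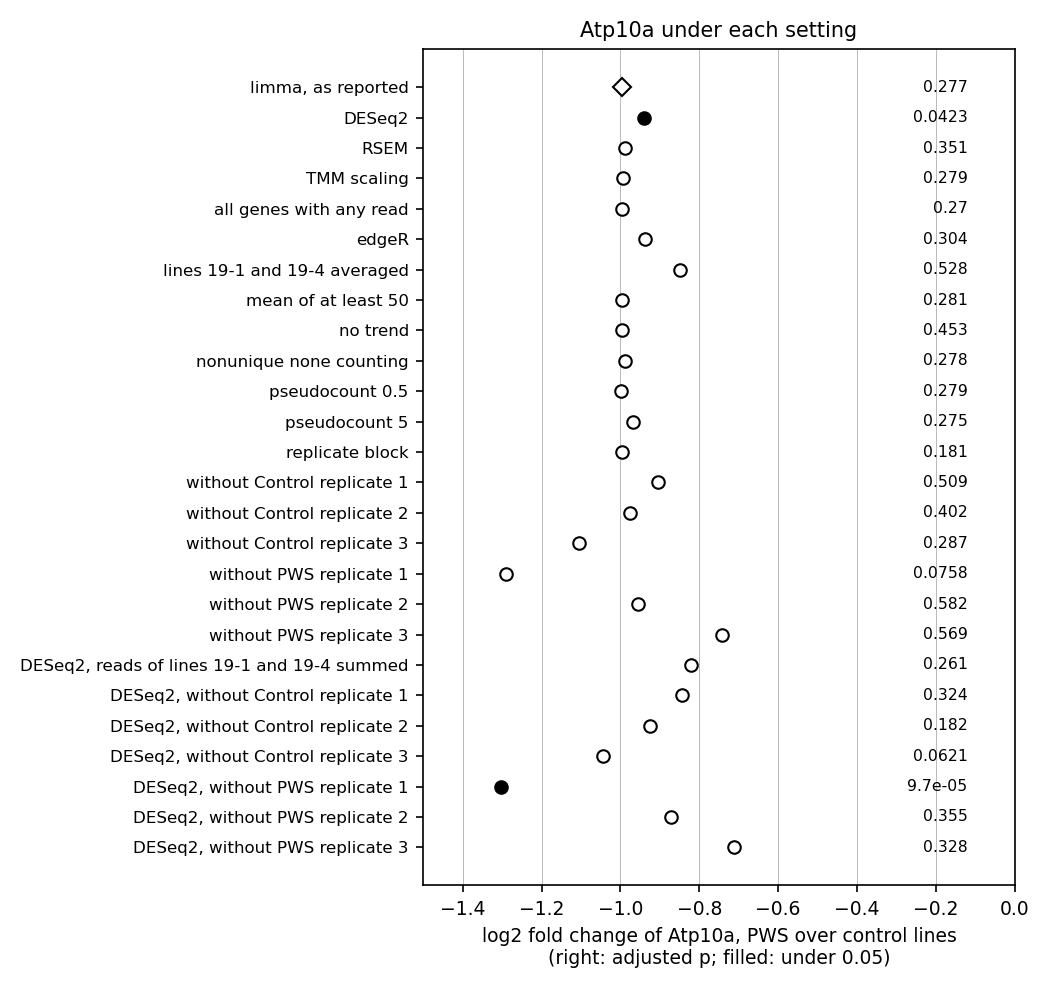
Log2 fold change of Atp10a in PWS over control lines (x axis) for each fit (y axis), with the adjusted p of each at the right; filled symbols are fits with an adjusted p under 0.05. All values are below 0, between −1.30 and −0.71, and the filled symbols are DESeq2 with all lines and DESeq2 without PWS line 3 (PWS replicate 1).

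The tested genes whose levels followed Atp10a most closely over the 6 lines were Neto2, an auxiliary subunit of kainate receptors (Pearson r = 0.994), Birc5, the mitotic regulator survivin (0.993), and Spag5, a spindle protein (0.992). All 3 had the same order of lines as Atp10a, from line 5-9 down to line 19-4. For Neto2 the control lines gave normalized counts of 378, 358 and 318, and lines 3, 19-1 and 19-4 gave 298, 252 and 222. Their log2 fold changes were −0.45, −0.28 and −0.25, with adjusted p of 0.314, 0.343 and 0.333. With 6 points that share libraries and fall into the groups compared, 305 genes had r over 0.9, so these coefficients describe the lines and carry no test.

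The RefSeq promoter windows of Ube3a and Atp10a are printed because these are the nearest flanking gene and the one that differed most, and because CG dinucleotides, the sites of DNA methylation, are central to imprinting. Each window runs from 250 bases before to 50 bases after the annotated start, on the plus strand of assembly GRCr8, which is not the build of the deposited files. CG is in capitals and reads the same on both strands. The Ube3a window, chr1:119205898-119206197, held 30 CG, and 10.3% of the 33469 rat promoter windows of that length held as many or more.
Ube3a: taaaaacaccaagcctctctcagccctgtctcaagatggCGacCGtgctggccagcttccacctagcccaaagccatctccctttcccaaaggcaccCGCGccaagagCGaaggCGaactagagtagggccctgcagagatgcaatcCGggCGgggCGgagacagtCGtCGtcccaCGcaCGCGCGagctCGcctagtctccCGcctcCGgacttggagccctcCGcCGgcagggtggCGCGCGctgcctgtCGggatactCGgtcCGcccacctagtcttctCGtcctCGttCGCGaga
The Atp10a window, chr1:118692228-118692527, held 1 CG, and 94.5% of windows held as many or more.
Atp10a: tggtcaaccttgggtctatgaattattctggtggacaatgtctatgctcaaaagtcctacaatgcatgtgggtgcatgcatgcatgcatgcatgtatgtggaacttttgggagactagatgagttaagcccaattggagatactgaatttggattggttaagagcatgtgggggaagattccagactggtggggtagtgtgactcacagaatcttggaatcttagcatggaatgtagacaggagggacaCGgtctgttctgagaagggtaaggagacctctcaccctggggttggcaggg
The windows of the other flanking genes held between 5 (Oca2) and 42 (Gabra5) CG, with 37 in Gabrg3, 36 in Herc2, 35 in Nipa1, 26 in Cyfip1 and 17 in Nipa2, beside a median of 7 over all windows. Which start of Atp10a these cells use was not examined, and no methylation data were analysed here.

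Gabrg3 and Gabra5 encode γ and α subunits of GABA-A receptors, the chloride channels opened by GABA. The normalized counts of Gabrg3 were 76.9, 45.9 and 72.9 in control lines 5-9, 2 and 16. They were 128, 72.9 and 102 in PWS lines 3, 19-1 and 19-4. The groups overlapped, because PWS line 19-1 lay at the level of control line 16 and below line 5-9. The means were 65.2 ± 16.9 and 101 ± 27.3 (SD, n = 3 lines each), with a log2 fold change of 0.62 ± 0.27 (SE, adjusted p = 0.442) and a 95% interval of −0.00089 to 1.24. The difference was positive without each line in turn, from 0.39 without line 2, the lowest line, to 0.83, and DESeq2 gave 0.63 (adjusted p = 0.44).

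Gabra5 was represented by 19 reads in all, too few for the test. Control lines 5-9, 2 and 16 had 6, 4 and 6 reads, and each PWS line had 1 read. The pooled ratio of PWS to control reads, corrected for library size, was 0.2 with an exact 95% interval of 0.0374 to 0.7, which covers counting error only. No control line overlapped a PWS line, yet the exact Poisson intervals of single lines did, for example 2.09 to 12.4 normalized counts in line 5-9 and 0.0258 to 5.69 in line 3. With every gene that had a read included in limma, the log2 fold change was −1.58 (adjusted p = 0.242), a value that the pseudocount pulls towards 0. The exact permutation test gave p = 0.1 (two-sided), the smallest possible here.

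Oca2 encodes a melanosomal membrane protein needed for pigment synthesis, and it had 0 reads in all 6 lines. With 0 counted, up to 3 reads remain possible in each library, or 2.73 to 3.59 normalized counts, a one-sided limit for counting error only, whereas the Poisson intervals given for other genes are two-sided. Among the other melanosome genes, tyrosinase (Tyr) and Tyrp1 also had no read in any line.

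The 4 genes furthest from the domain were read in every line and showed no difference past the threshold. Herc2, a very large HECT-type ubiquitin ligase that binds UBE3A protein, had normalized counts of 8217, 8249 and 8114 in the control lines and 8235, 8454 and 7886 in the PWS lines. The PWS lines spanned the range of the controls and overlapped them. Its log2 fold change was −0.00086 ± 0.062 (SE, adjusted p = 0.996), with a 95% interval of the ratio from 0.906 to 1.10, and 99.6% of the genes tested had a larger difference in size.

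Cyfip1, a subunit of the WAVE complex that drives actin branching and a partner of the RNA-binding protein FMRP, had normalized counts of 3245, 3368 and 3063 in the control lines and 3135, 3264 and 3261 in the PWS lines. All PWS values fell within the range of the controls. The log2 fold change was −0.0014 ± 0.065 (adjusted p = 0.994), and the interval of the ratio was 0.901 to 1.11.

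Nipa1 and Nipa2 encode magnesium transporters. Nipa1 had normalized counts of 698, 681 and 678 in the control lines and 719, 702 and 705 in the PWS lines, so that the groups did not overlap, with a PWS mean at 103% of the control mean (log2 fold change 0.047 ± 0.072, adjusted p = 0.85). Nipa2 had 3331, 3338 and 2997 in the control lines and 3058, 3055 and 3358 in the PWS lines, which overlapped (log2 fold change −0.029 ± 0.074, adjusted p = 0.919). The intervals of the ratio were 0.921 to 1.16 for Nipa1 and 0.871 to 1.10 for Nipa2.

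**Figure D3:**
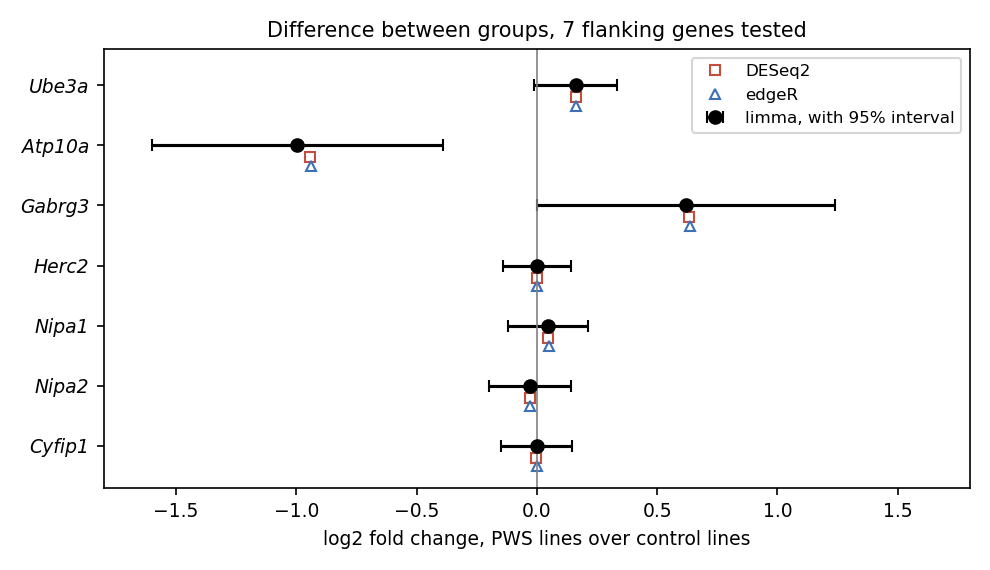
Log2 fold change of PWS over control lines (x axis) for the 7 flanking genes tested; black points and bars are limma values with 95% intervals, squares DESeq2 and triangles edgeR. Herc2, Nipa1, Nipa2 and Cyfip1 lie at 0 with narrow intervals, Atp10a at −0.996 and Gabrg3 at 0.62 with wide ones.

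Among the 7 genes tested, the spread between lines was widest for the 2 with the fewest reads, Gabrg3 and Atp10a. The coefficient of variation over the 3 control lines was 0.862% for Herc2, 1.56% for Nipa1, 4.76% for Cyfip1, 6.05% for Nipa2 and 6.16% for Ube3a, against 13.9% for Atp10a and 25.9% for Gabrg3. Over the PWS lines it was 1.27% to 5.83% for the first 5 and 39.4% and 27.1% for Atp10a and Gabrg3. The intervals of the other 5 genes are accordingly the narrower ones.

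To place the flanking genes on the chromosome, tested genes within 5 Mb of either edge were ordered by their starts in RefSeq. Beyond Ube3a 10 genes were tested, the 7 flanking genes among them, and beyond Peg12, at the proximal edge, 19 were tested. By limma 0 of the 10 and 0 of the 19 passed the adjusted threshold. At an unadjusted p under 0.05 stood 1 of the 10 and 1 of the 19 (Tjp1, a tight junction scaffold, 0.17, adjusted p = 0.44), and DESeq2 called Atp10a alone. Over all genes tested these shares were 0.257% by limma, 11.3% unadjusted and 1.46% by DESeq2. The median log2 fold change was −0.0011 on the Ube3a side and 0.018 on the Peg12 side. On the Peg12 side 18 of 19 genes were within 0.25 of 0, and on the Ube3a side 8 of 10 were, with Atp10a and Gabrg3 as the exceptions. Tubgcp5, a γ-tubulin complex gene beyond Cyfip1, stood at 0.069 (adjusted p = 0.762). Of a list of 16 genes of the proximal side, 12 matched a counted feature by name and 11 were tested. Of these 11, 0 passed by limma, DESeq2 or edgeR, from Tm2d3 (−0.18, adjusted p = 0.617) to Mcee (0.18, adjusted p = 0.752).

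**Figure D4:**
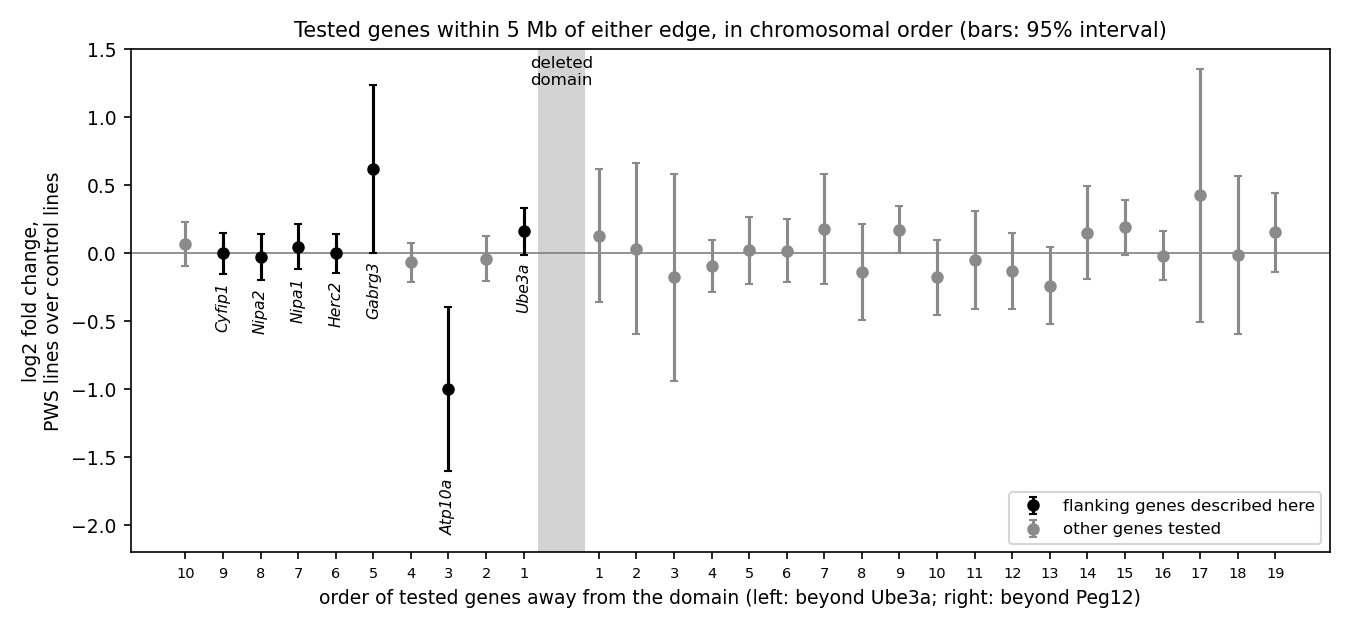
Log2 fold change of PWS over control lines (y axis) with 95% intervals for tested genes within 5 Mb of either edge, in chromosomal order away from the deleted domain (x axis, rank; grey band, the domain); black, the flanking genes, and grey, other genes. Atp10a has the single interval that lies below 0, and Tjp1, beyond Peg12, the single one that lies above it (0.00019 to 0.35). The tested genes on either side of Atp10a have values near 0.

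The families of the flanking genes were read next to them. Of 27 HECT ubiquitin ligases, with Ube3a and Herc2 among them, 26 were tested, 0 passed by limma and 1 by DESeq2, Hectd4, which was higher in PWS lines (0.44, adjusted p = 0.0387 by DESeq2 and 0.277 by limma). The ligases ranged from Hecw2 (−0.94, adjusted p = 0.324), a NEDD4-like ligase, to Hectd4, with a median of 0.027, and 5 of the 26 had an unadjusted p under 0.05, where 11.3% of all genes tested did and DESeq2 called 1.46%. Of 17 P4-ATPase flippases and their CDC50 partners, 15 matched a counted feature by name and 11 were tested. By limma 0 of the 11 passed, with Atp10a the lowest, Atp8a2 the highest (0.24, adjusted p = 0.604) and a median of −0.042. Unadjusted, 4 of the 11 had a p under 0.05, where 11.3% of all genes tested did. Atp10a was the one flippase called by DESeq2.

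Of 18 GABA-A subunit genes 9 were tested and 0 passed by limma, DESeq2 or edgeR, with 0 at an unadjusted p under 0.05, and 3 of the 18 had no read in any line. Their log2 fold changes ran from −0.17 for Gabrq (adjusted p = 0.536) to 1.16 for Gabrg1 (adjusted p = 0.449), which averaged 5.94 normalized counts. The median was 0.24, and 8 of 9 were above 0. Summed neuron markers, read beside these neuronal receptor genes, overlapped between the groups (2947 to 3201 normalized counts in control and 2894 to 3339 in PWS lines).

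Of 11 WAVE complex genes 9 were tested and 0 passed by limma, DESeq2 or edgeR, from the small subunit Brk1 (−0.13, adjusted p = 0.492) to the actin nucleation promoter Wasf1 (0.58, adjusted p = 0.353), with a median of 0.016 and 1 of 9 at an unadjusted p under 0.05 (Wasf1). Of 18 NIPA family members and other magnesium transporters 16 were tested and 0 passed by limma, DESeq2 or edgeR, from Slc41a2, a Mg2+ carrier (−0.41, adjusted p = 0.301), to Cnnm1 (0.35, adjusted p = 0.432), with a median of 0.012 and 3 of 16 at an unadjusted p under 0.05 (11.3% of all genes tested). Of 10 melanosome genes 9 matched a counted feature by name and 3 were tested. Of these 3, 0 passed by the same tests or at an unadjusted p under 0.05. They ran from Pmel, the fibril protein of melanosomes (−0.048, adjusted p = 0.966), to the ion exchanger Slc24a5 (0.14, adjusted p = 0.955), with a median of −0.045. These medians stand beside −0.0028 for all genes tested.

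**Figure D5:**
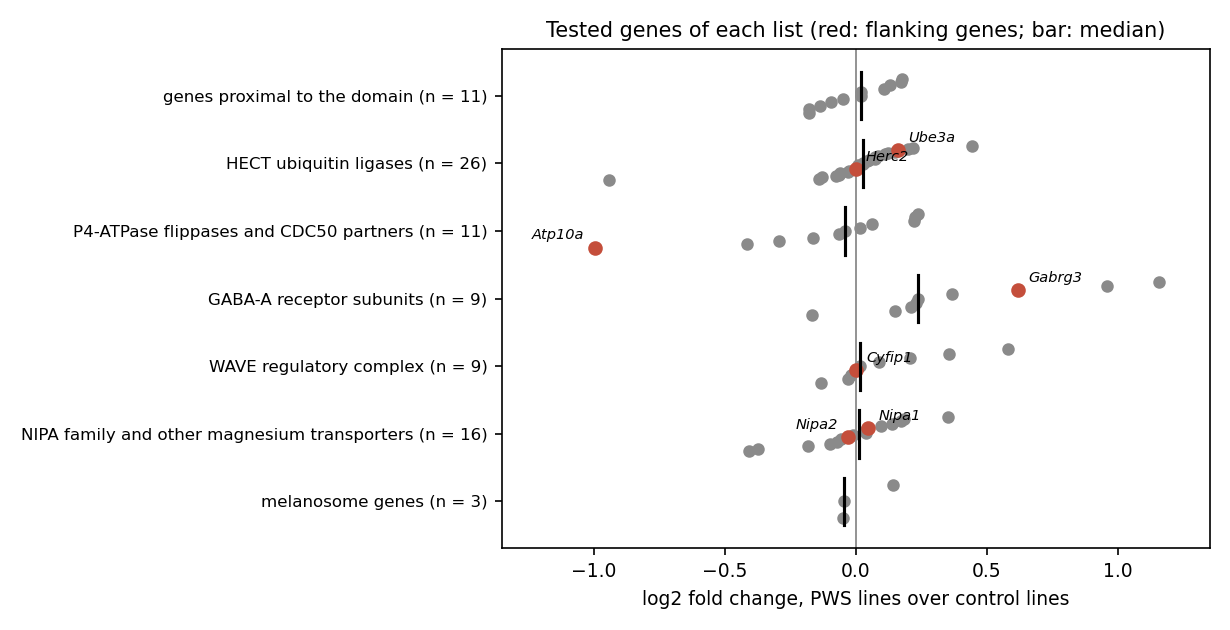
Log2 fold change of PWS over control lines (x axis) for each tested gene of the lists (y axis), with flanking genes in red, other genes in grey and a black bar at each median. Atp10a is the lowest flippase at −0.996, Ube3a and Herc2 lie among the other HECT ligases, and Gabrg3 lies towards the upper end of the GABA-A subunits.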

How the data were processed

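RNA-seq of 3 control and 3 PWS INS-1 lines was analysed, with 1 library per line. After trimming, the authors aligned the reads with STAR 2.7.0e to the Ensembl rat genome with transgenes and custom features added, and counted them with HTSeq 0.11.2 (nonunique all, used here, and nonunique none) or RSEM 1.3.1. The deposited values are a signal: counts divided by DESeq2 size factors. Whole reads were recovered for 100% of the values above 0 in the HTSeq tables (within 0.001 of a whole multiple of the smallest value). The deposited fold changes and p-values of the authors' own comparison were not used, and 0 columns lacked a sample.

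The groups were compared with limma 3.58.1 (trend) in R 4.3.3 on log2(normalized count + 1) wherever the mean over the lines was 5 or more, with Benjamini-Hochberg adjustment. A pseudocount understates fold changes of low genes. limma was kept as the main test because the deposited values are not whole counts, with edgeR 4.0.16 and DESeq2 1.42.0 run on the recovered reads. All tests were tested on simulated data. The members, lists and rules were chosen with earlier results of these data known. Named were the 9 flanking genes, Snurf, Snrpn and Mkrn3, the highest, lowest and called genes of each list, the 3 tested genes most like Atp10a over the lines, and called genes within 5 Mb of the domain, while Tjp1, Tyr, Tyrp1 and single cell type markers were named after their values were seen. Lines of the 2 groups share replicate numbers, and no label says that these mark a shared culture. Intervals from counts cover counting error only. Guides came from the study's oligo list, and promoters from RefSeq (GRCr8), in which 9 of 9 flanking genes matched by symbol. Alternatives were other pseudocounts, filters, scaling, countings and tests, each line left out, the 2 subclones averaged, and the replicate block.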

Additional observations from a re-analysis of the deposited data

How the results depend on the processing

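The count of flanking genes past the threshold was 0 by limma under every alternative, from 0 to 0 without each line in turn, and 1 by DESeq2. DESeq2 without each line, chosen after seeing the data, gave 0 to 1, with 1 only without line 3. Their median log2 fold change without each line lay between −0.0079 and 0.030. The 40 genes called of all tested became 228 by DESeq2, 12 with RSEM, 9 with a mean of at least 50, 16 with nonunique none counting, and 33 to 55 without each line. Same-numbered lines had correlations of deviations of 0.00345, 0.0467 and 0.00513, and the other pairs lay between −0.057 and 0.0563. These values carry no test and cannot decide whether lines were handled in pairs by number. The replicate block gave 36 calls, 0 of them flanking, and lines 2 and 16 correlated best with the PWS line of their own number, line 5-9 with one of another number. Values near 0 changed sign. Cyfip1 was 0.0056 with RSEM, 0.0013 with TMM scaling, 0.00027 by edgeR, 0.0011 with nonunique none counting and −0.038 to 0.030 without each line. Herc2 was 0.0080 with RSEM, 0.0019 with TMM, 0.0024 by edgeR, 0.0012 with the subclones averaged and −0.024 to 0.026 without each line. Pmel was 0.10 with RSEM and −0.23 to 0.090 without each line, Slc24a5 −0.055 with RSEM and −0.50 to 0.59, and Mcee −0.0068 to 0.31. The causes were not tested. Gabra5 and Oca2 lie at or under the depth of these libraries.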
